A study of Mus musculus with 6 samples.

Results

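The genes described here were 9 transcription factors of the osteoblast lineage, *Runx2*, *Sp7*, *Dlx3*, *Dlx5*, *Dlx6*, *Msx1*, *Msx2*, *Atf4* and *Twist1*. They were found by gene name among the 48733 named genes of each expression table, and all 9 had a feature. RNA-seq covered 6 libraries, 3 under the label bone and 3 under the label osteoblasts, and all came from the inbred Collaborative Cross strain CC016/GeniUnc with no genetic change named. The bone libraries are described as cortical bone of the femur from which the marrow had been spun out. The osteoblast libraries are described as bone marrow stromal cells cultured and then differentiated with ascorbic acid, beta-glycerophosphate and dexamethasone. Age and sex were not in the labels, and neither was the mouse behind each library. By the study's methods the femora and the cultured marrow came from the same small set of mice, so bone and osteoblast libraries can share a mouse, and the p-values measure only the spread between these libraries. Expression was in FPKM, which is the read pairs on a transcript divided by its length and by the depth of the library.

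Osteoblasts arise from mesenchymal progenitors under the control of a short cascade of DNA-binding proteins. RUNX2, a runt-domain factor, commits cells to the lineage, and SP7 (osterix), a zinc-finger factor, acts after it. The homeodomain proteins of the DLX and MSX families act around and upstream of both, ATF4 supports amino acid supply and late osteoblast genes, and TWIST1, a basic helix-loop-helix (bHLH) protein, can bind RUNX2 and hold it back.

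The labels did not follow the marker genes of blood. *Hbb-bt*, a beta-globin gene of red cells, was at 34268 to 48650 FPKM in bone replicate 3 and osteoblasts replicates 2 and 3, and at 3.43 to 7.05 FPKM in osteoblasts replicate 1 and bone replicates 1 and 2. The former 3 libraries are called Hbb-bt-rich below and the latter 3 Hbb-bt-poor. This split was read from measured values, crosses the labels and carries no test. Whether labels had been exchanged was not tested, and each comparison of bone with osteoblasts holds only for the labels as deposited. Between the Hbb-bt-rich and the Hbb-bt-poor libraries, the summed FPKM of 3 erythroid markers was 35064 to 49635 against 3.48 to 7.26, that of 7 neutrophil markers 14246 to 17226 against 0.43 to 5.51, and that of 5 B cell markers 127 to 137 against 0 to 0.429. *Elane*, *Cd79a* and *Cd79b*, which define neutrophils and B cells, were at 0 in all 3 Hbb-bt-poor libraries. The sum over 3 muscle markers was 221 to 943 against 0.0324 to 1.09, whereas 5 macrophage markers summed to 1574 to 1925 against 5009 to 9240 and 3 smooth muscle markers to 11 to 17.5 against 193 to 497. The sums over 7 osteoblast and osteocyte markers overlapped (3585 to 4378 against 3181 to 5134), as did those over 4 adipocyte markers (120 to 166 against 46.6 to 249). Within the osteoblast and osteocyte set, *Bglap2* and *Sost* were higher in every Hbb-bt-rich library and *Ibsp*, *Alpl* and *Dmp1* lower, while *Col1a1* and *Phex* overlapped. In bulk RNA, fewer cells of a type and less RNA per cell cannot be told apart. The libraries held 2.04 to 3.39 Gb of aligned bases, and at that depth a 1 kb transcript hit by 3 pairs comes to 0.133 to 0.221 FPKM. Features without a gene name took 71.5% of all FPKM in bone replicate 2 and 65% in osteoblasts replicate 1, but 27.4% to 30.7% in the other 4. The median ratio of a library to the geometric mean of all 6 was 0.659 and 0.854 in those 2 and 1.05 to 1.33 in the other 4, and values were also given after dividing by it. The ratio was taken over the 8908 named genes at 1 FPKM or more in every library.

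*Atf4*, *Sp7* and *Runx2* had the highest FPKM of the 9 genes, in that order, in 6 of 6 libraries. *Atf4* was above 91.7% to 94.7% of the genes that reached 1 FPKM in the same library, *Sp7* above 70.3% to 90.3% and *Runx2* above 54.9% to 74.5%. These 3 genes held 85% to 90% of the summed FPKM of the 9, which was 63.9 in bone replicate 2 and 99.9 to 130 elsewhere. The fourth place was taken by *Twist1* in each Hbb-bt-poor library and by *Dlx3* in each Hbb-bt-rich one. In FPKM, *Dlx3*, *Dlx5* and *Twist1* changed places among the libraries, as did *Dlx6* and *Msx1*, so no order within these sets exceeded the spread between libraries. By coverage, *Dlx5* ranked below *Dlx3* and *Twist1* in 6 of 6 libraries, and the other orders within these sets still changed. *Msx2* was lowest in all 6. In FPKM, 5 of the 8 genes other than *Msx2* (*Atf4*, *Dlx3*, *Dlx5*, *Msx1* and *Runx2*) had their lowest value in bone replicate 2, the library with the largest unnamed share, and 2 (*Atf4* and *Dlx3*) did so after scaling.

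**Figure D1:**
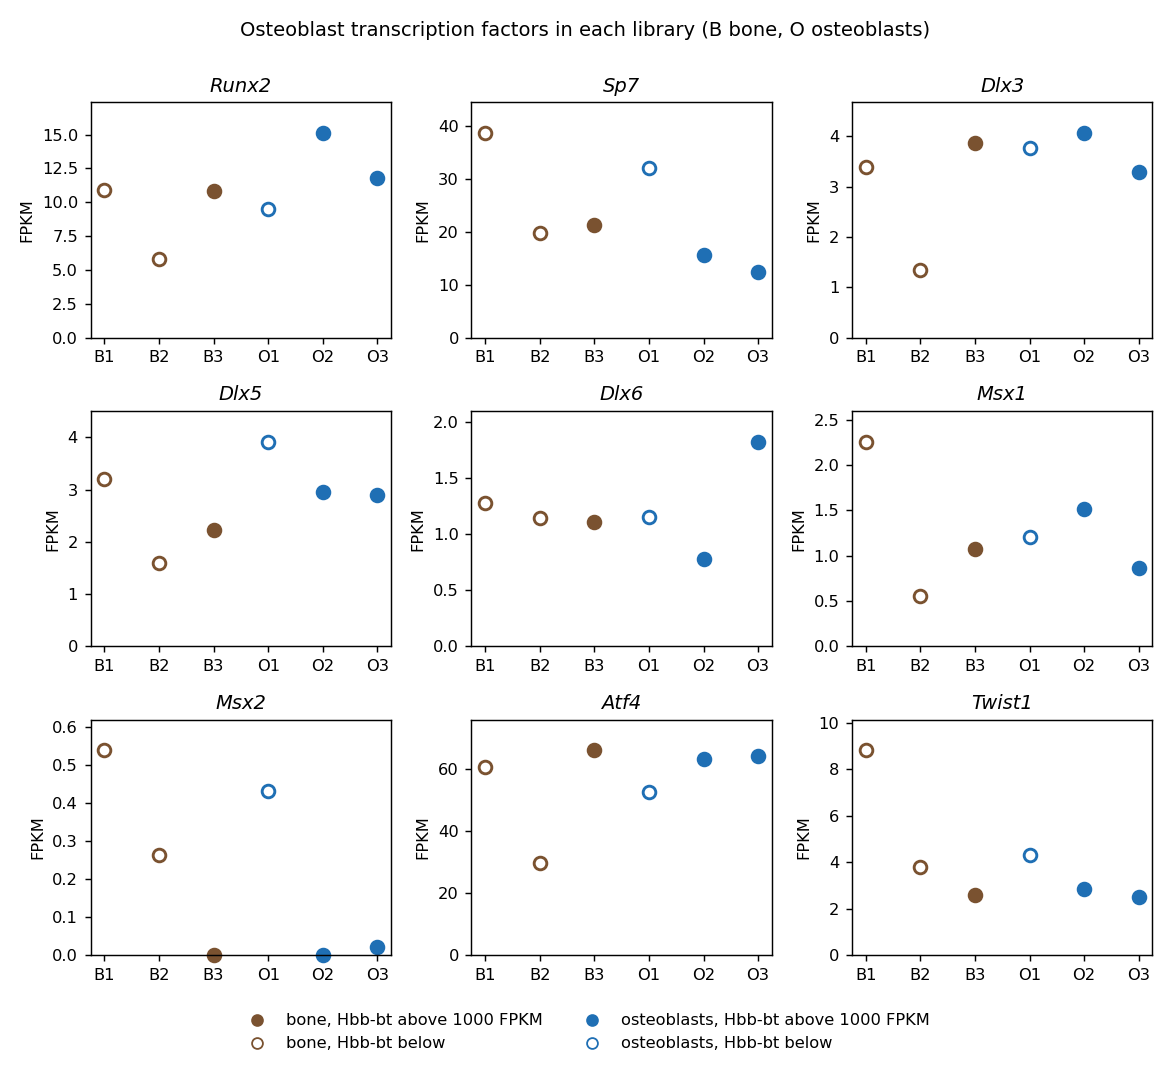
FPKM of the 9 transcription factors (vertical axes, each from 0) in the 6 libraries (B1 to B3 bone, O1 to O3 osteoblasts), 1 point per library and filled where *Hbb-bt* was above 1000 FPKM. *Twist1* is below 3 FPKM at each filled point and above it at each open point, *Msx2* is near 0 at the filled points, and *Runx2*, *Dlx3*, *Dlx5*, *Dlx6* and *Msx1* overlap between filled and open points.

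*Runx2* lies on the minus strand of Chr. 17 at chr17:44495987-44814797 (GRCm38), a span of 318811 bp. Its FPKM were 10.9, 5.78 and 10.8 in bone replicates 1 to 3 and 9.47, 15.1 and 11.8 in osteoblasts replicates 1 to 3. Neither the labels nor the *Hbb-bt* level separated these values, and after scaling they lay between 8.22 and 13.3, a range of 1.62-fold. The level of *Runx2* relative to other genes depended on the deposited quantity that was read. FPKM recalculated from the deposited coverage were 0.587 to 1.2, so that the deposited FPKM were 9.07 to 9.84 times higher in the Hbb-bt-poor libraries and 11.9 to 15.1 times higher in the Hbb-bt-rich ones. By coverage, *Runx2* ranked below *Atf4*, *Sp7*, *Twist1*, *Dlx3* and *Dlx5* in 6 of 6 libraries. *Atf4* and *Dlx3* gave the same value by both quantities, and the part of the several *Runx2* transcripts in this difference was not tested.

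Within the *Runx2* span the tables list 22 unnamed features outside the overlap with *Supt3*, a gene of the opposite strand that shares 37646 bp with *Runx2*. The median FPKM of these features was 0.18, 0.108 and 0.0489 in bone replicates 1 and 2 and osteoblasts replicate 1. In bone replicate 3 and osteoblasts replicates 2 and 3 it was 0.82, 1.03 and 0.978, which is 7.57%, 6.83% and 8.28% of the deposited FPKM of *Runx2* itself against 0.516% to 1.87% in the other 3. These shares depend on the quantity read for *Runx2*. From coverage, *Runx2* was at 0.911, 1.00 and 0.937 in bone replicate 3 and osteoblasts replicates 2 and 3, near the medians of the features. It was at 1.2, 0.587 and 0.989 in bone replicates 1 and 2 and osteoblasts replicate 1, above the medians there. For 19 of the 22 features every Hbb-bt-rich library was above every Hbb-bt-poor one. The same held for 47.8% of the 35196 unnamed features over the genome with a mean of at least 0.1 FPKM. High values in the Hbb-bt-rich libraries alone can carry a feature past that filter. The 22 features lie in the same locus and are not independent, so the 2 shares carry no test. *Supt3*, which encodes a subunit of the SAGA complex, was at 2.04, 0.72 and 1.02 FPKM in the Hbb-bt-poor libraries and at 3.73, 3.48 and 4.11 in the Hbb-bt-rich ones. The library kit keeps no strand, so reads of *Runx2* and of *Supt3* or the antisense genes *Runx2os1* (0.186 to 1.02 FPKM) and *Runx2os3* (0 to 0.17 FPKM) cannot be told apart where these overlap.

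*Sp7* lies on the minus strand at chr15:102356609-102370910. It was at 38.7, 19.8 and 21.3 FPKM in bone replicates 1 to 3 and at 32.1, 15.6 and 12.5 FPKM in osteoblasts replicates 1 to 3. The highest value under each label belonged to an Hbb-bt-poor library, but bone replicate 2 lay below bone replicate 3. After scaling, the values were 29.1, 30 and 37.6 in the Hbb-bt-poor libraries and 20.2, 13.7 and 10.8 in the Hbb-bt-rich ones, and these no longer overlapped. The labels did not separate *Sp7* on either scale.

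*Dlx5* (chr6:6877805-6882085, minus strand) and *Dlx6* (chr6:6863334-6868568, plus strand) stand 9236 bp apart, and their proteins share targets in bone and cartilage. *Dlx5* was at 3.19, 1.6 and 2.23 FPKM in bone and at 3.91, 2.96 and 2.9 FPKM in osteoblasts. The labels overlapped in FPKM, and after scaling the osteoblast libraries (2.5 to 4.58) were all above the bone libraries (2.12 to 2.43). *Dlx6* was lower, at 1.28, 1.14 and 1.11 FPKM in bone and 1.16, 0.776 and 1.83 FPKM in osteoblasts, with overlap by label and by *Hbb-bt*. From coverage, *Dlx6* was nearly level at 0.405 to 0.578 over the 6 libraries, a range of 1.43-fold beside 2.36-fold in FPKM. The antisense genes *Dlx6os1* and *Dlx6os2* overlap *Dlx6* and were listed at no more than 0.222 and 0.129 FPKM.

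*Dlx3* (chr11:95120119-95125296, plus strand), whose protein takes part in late osteoblast, tooth and hair differentiation, was at 3.39, 1.35 and 3.88 FPKM in bone and at 3.76, 4.07 and 3.3 FPKM in osteoblasts. Only bone replicate 2 stood away from the rest, and scaled values of *Dlx3* ran from 2.05 there to 4.4 in osteoblasts replicate 1.

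*Msx1* (chr5:37820485-37824583, minus strand) encodes a homeodomain repressor of craniofacial and tooth progenitors. It was at 2.26, 0.553 and 1.08 FPKM in bone and at 1.21, 1.51 and 0.868 FPKM in osteoblasts, and both bone extremes enclosed all osteoblast values. *Msx2* (chr13:53466884-53473074, minus strand), its paralog and a BMP-responsive regulator of skull bone, was at 0.538, 0.263 and 0.432 FPKM in the Hbb-bt-poor libraries (bone replicates 1 and 2 and osteoblasts replicate 1). It was listed at 0 in bone replicate 3 and osteoblasts replicate 2 and at 0.0203 FPKM in osteoblasts replicate 3. For a transcript of 2456 nt, the longest in GENCODE vM1, 3 read pairs correspond to 0.0541 to 0.0731 FPKM in these 3 libraries. The values of *Msx2* there were below this limit. The limit itself is below the 0.263 to 0.538 FPKM of the Hbb-bt-poor libraries, so levels like those were within reach of the depth. *Msx2* did not reach the mean of 1 FPKM needed for the test between labels.

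*Atf4* (chr15:80255184-80257540, plus strand) was at 60.7, 29.7 and 66.1 FPKM in bone and at 52.5, 63.4 and 64.2 FPKM in osteoblasts. In FPKM each Hbb-bt-rich library was above each Hbb-bt-poor one, which also held for 38.4% of the 12112 genes tested. The scaled values of 45.7, 45 and 62.8 in bone and 61.5, 55.9 and 55.4 in osteoblasts overlapped, so that separation did not outlast the scaling. *Atf4* made up 46.4% to 48.2% of the summed FPKM of the 9 genes in the Hbb-bt-poor libraries and 59.7% to 64.2% in the Hbb-bt-rich ones.

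*Twist1* (chr12:33957671-33961276, plus strand) was at 8.82, 3.8 and 2.59 FPKM in bone and at 4.3, 2.85 and 2.5 FPKM in osteoblasts. All 3 Hbb-bt-rich libraries were below the 3 Hbb-bt-poor ones, as for 16.9% of genes tested. The scaled values of *Twist1*, 6.64, 5.77 and 5.03 against 2.46, 2.51 and 2.16, stayed apart as well. Counted over the 8 members tested, 1 was higher (*Atf4*) and 1 lower (*Twist1*) in the Hbb-bt-rich libraries in FPKM, and after scaling 0 were higher and 2 lower (*Sp7* and *Twist1*), beside 40.1% higher and 29.8% lower of all genes tested. As shares of 8, these member counts are below the shares over all genes. Blood cell, muscle, macrophage and smooth muscle markers moved along the same split, and their part in the levels of *Sp7*, *Twist1* and *Msx2* was not tested.

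Because *Atf4* and *Twist1* were the tested members that separated the libraries by *Hbb-bt* in FPKM, the 250 bases before their RefSeq starts (GRCm38.p6) are shown, 5′ to 3′ on the strand of the gene. For *Atf4*, chr15:80254934-80255183, the capitals mark the E-box CANNTG, the letters bHLH proteins such as TWIST1 bind. For *Twist1*, chr12:33957421-33957670, they mark the GC box GGGCGG read on either strand, the letters of SP and KLF proteins.
Atf4: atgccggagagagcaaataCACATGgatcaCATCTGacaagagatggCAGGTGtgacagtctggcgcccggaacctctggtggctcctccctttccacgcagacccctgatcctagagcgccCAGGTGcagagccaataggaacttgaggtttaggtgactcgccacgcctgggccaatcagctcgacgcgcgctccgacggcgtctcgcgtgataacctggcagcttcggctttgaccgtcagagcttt
Twist1: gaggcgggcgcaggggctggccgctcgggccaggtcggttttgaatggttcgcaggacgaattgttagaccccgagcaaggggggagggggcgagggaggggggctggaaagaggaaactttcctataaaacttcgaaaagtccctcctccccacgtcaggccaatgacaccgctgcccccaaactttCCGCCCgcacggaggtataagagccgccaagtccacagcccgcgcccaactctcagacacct
The *Atf4* window held 4 E-boxes, which do not overlap each other, and 66.2% of 32851 windows of the same length held at least 1. The *Twist1* window held 1 GC box, found in 32.7% of all windows, and 0 E-boxes. RefSeq windows were matched for 5 of the 9 genes (*Msx1*, *Twist1*, *Msx2*, *Atf4* and *Runx2*). The window of *Runx2* had a GC content of 44.8% and 0 CpG, whereas those of the other 4 had 59.2% to 68% and 16 to 20 CpG, beside medians of 52.4% and 6 over all windows. Of the 250 bases, 170 in the *Runx2* window and all in the *Msx2* window lie inside the listed span of the gene, and 0 in the other 3. The RUNX hexamer TGTGGT, read on both strands, was found once in the *Runx2* window and in none of the other 4, and 14.1% of all windows held it. The homeodomain core TAATT, read on both strands, had 3 matches in the *Msx2* window, in 2 separate stretches because a pair of them overlap, and 25% of windows held it. The CRE palindrome TGACGTCA was in none of the 5 windows and in 1.55% of all. These shares are of windows with at least 1 match, and the shares with as many as 3 or 4 were not computed. A match describes letters only.

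Ratios between members within a library do not depend on how the library was scaled, and 4 were taken. The ratio of *Twist1* to *Runx2*, a bHLH protein and the factor it can hold back, was 0.808, 0.658 and 0.454 in the Hbb-bt-poor libraries and 0.239, 0.189 and 0.212 in the Hbb-bt-rich ones. *Sp7* to *Runx2* was 3.55, 3.42 and 3.39 against 1.97, 1.03 and 1.06. *Msx2* to *Dlx5* was 0.169, 0.165 and 0.11 against 0, 0 and 0.00698. From coverage, *Twist1* to *Runx2* was 7.26, 6.41 and 4.3 against 2.81, 2.81 and 1.99, so *Twist1* was below *Runx2* in FPKM and above it by coverage in 6 of 6 libraries. *Sp7* to *Runx2* was 13, 13.7 and 13.1 against 9.21, 6.12 and 5.23 from coverage, and the near equality of both genes in osteoblasts replicates 2 and 3 was seen in FPKM alone. The first 3 ratios did not overlap between the sets of libraries with either quantity, while *Dlx6* to *Dlx5* did, at 0.401, 0.714 and 0.296 against 0.5, 0.262 and 0.63. The share of all gene pairs that separate in this way was not computed. Of single genes tested, 40.1% were wholly higher and 29.8% wholly lower in the Hbb-bt-rich libraries after scaling, so such separation is not particular to these members. The *Sp7* to *Runx2* ratio in FPKM was near constant, at 3.39 to 3.55, only within the Hbb-bt-poor libraries, which are bone replicates 1 and 2 and osteoblasts replicate 1.

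**Figure D2:**
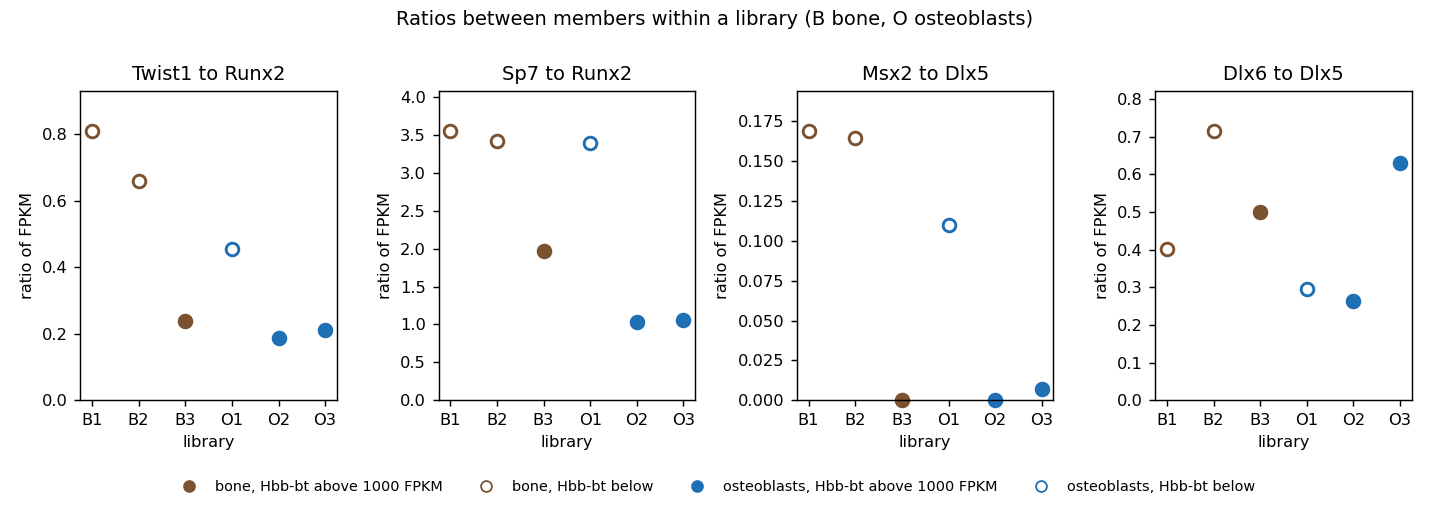
Ratio of the FPKM of paired members within each library (vertical axes, from 0) for the 6 libraries (B bone, O osteoblasts), 1 point per library and filled where *Hbb-bt* was above 1000 FPKM. The *Sp7* to *Runx2* ratio is 3.39 to 3.55 at the open points and 1.03 to 1.97 at the filled ones, and the *Dlx6* to *Dlx5* ratio overlaps.

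Between the labels, none of these ratios had an exact permutation p under 0.05, which 3 libraries against 3 cannot reach, so the test could not decide. The log2 ratio of *Twist1* to *Runx2* was -0.99 ± 0.94 in bone and -1.92 ± 0.69 in osteoblasts (SD, n = 3 each), a difference of -0.93 (two-sided exact permutation test, p = 0.2, Benjamini-Hochberg adjusted over the 4 ratios 0.4). For *Sp7* to *Runx2* it was 1.52 ± 0.48 and 0.63 ± 0.98, a difference of -0.89 (exact permutation p = 0.2, adjusted 0.4). *Dlx6* to *Dlx5* differed by -0.51 (exact permutation p = 0.3, adjusted 0.4). *Msx2* to *Dlx5* differed by -1.68 (exact permutation p = 0.5, adjusted 0.5), but where *Msx2* was near 0 this log2 ratio is set by the pseudocount of 0.01, and the difference was -1.12 with a pseudocount of 0.1 and -3.43 to -0.57 on leaving out a library. With 3 libraries against 3 the smallest p such a test can give is 0.1.

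The comparison the labels imply, osteoblasts against bone, called none of the members. Over the 12112 genes with a mean of at least 1 FPKM, limma on log2(FPKM + 1) with Benjamini-Hochberg adjustment called 0 genes at an adjusted p under 0.05 (0%), and 17 had an unadjusted p under 0.05. *Runx2* averaged 9.18 ± 2.94 FPKM in bone and 12.1 ± 2.83 in osteoblasts (SD, n = 3 each), a log2 difference of 0.39 (SE 0.45, 95% interval -0.62 to 1.40). *Sp7* averaged 26.6 ± 10.5 and 20.1 ± 10.6 FPKM, a log2 difference of -0.44 (SE 0.53, interval -1.63 to 0.76). For *Atf4* the means were 52.2 ± 19.7 and 60 ± 6.52 FPKM and the log2 difference 0.27 (SE 0.51, interval -0.89 to 1.44). *Twist1* averaged 5.07 ± 3.3 and 3.22 ± 0.953 FPKM, with a log2 difference of -0.41 (SE 0.48, interval -1.51 to 0.68).

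The homeodomain genes had log2 differences of 0.35 (*Dlx3*), 0.37 (*Dlx5*), 0.02 (*Dlx6*) and -0.01 (*Msx1*), with standard errors of 0.40 to 0.45. Without bone replicate 2 the difference of *Runx2* was 0.12 and that of *Dlx3* 0.0220, and without bone replicate 1 that of *Sp7* was -0.14. That of *Dlx6* turned negative (-0.04) after median-ratio scaling. The adjusted p in limma was 0.999 for 7 of the members and 1.0 for *Msx1*. Every interval reached at least 0.54 on both sides of 0, so changes of that size were within the error. The median over the 8 members was 0.15 beside 0.12 over all genes tested, and the median SD within a label was 0.59. By overlap, 0 members were wholly higher or lower in osteoblasts in FPKM, beside 0.479% and 0.438% of all genes. After scaling 1 was higher (*Dlx5*) and 0 lower, beside 1.48% and 1.5%.

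**Figure D3:**
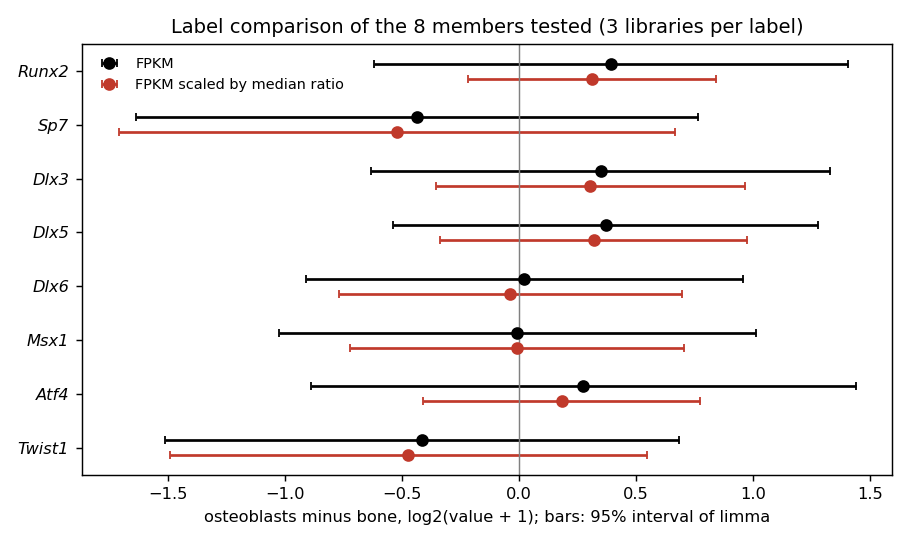
Difference between osteoblasts and bone on the log2(value + 1) scale (horizontal axis) for the 8 members tested, with FPKM in black and FPKM scaled by the median ratio in red. Points are limma estimates over 3 libraries per label and bars their 95% intervals, all of which include 0, and *Dlx6* lies on either side of 0 on the 2 scales.

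Genes around the members were described from 10 lists of 92 genes, of which 82 had a feature and 67 were tested. Between the labels 0 of the 67 were called by limma. By *Hbb-bt*, 17 were higher, 23 lower and 27 overlapping in FPKM, and 18, 34 and 15 after scaling, to be read against the shares over all genes given above. Among 8 family members and partners of RUNX2, 5 were lower in every Hbb-bt-rich library (*Cbfb*, *Wwtr1*, *Yap1*, *Maf* and *Cebpb*) and 1 was higher (*Runx3*). After scaling *Runx1* was higher as well. *Cbfb*, the DNA-binding partner of RUNX proteins, was at 25.8, 14.8 and 15 FPKM in the Hbb-bt-poor and 9.2, 11.3 and 11.9 FPKM in the Hbb-bt-rich libraries.

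Of 11 osteoblast and osteocyte target genes tested, 2 were higher and 5 lower in the Hbb-bt-rich libraries, and after scaling 2 were higher and 8 lower, *Col1a2*, *Sparc* and *Phex* being added. *Bglap2*, an osteocalcin gene, was at 1959, 1889 and 1641 FPKM there and at 264, 383 and 513 FPKM in the others, and *Sost*, the osteocyte gene of sclerostin, was at 15.8 to 22.7 against 0.0661 to 0.198 FPKM. *Ibsp*, the bone sialoprotein gene, went the other way, with 43.1, 78.2 and 91.3 FPKM against 1278, 986 and 1004. *Alpl*, the alkaline phosphatase of mineralizing cells, *Mmp13*, *Tnfrsf11b* and *Dmp1* were lower too, and *Col1a1* overlapped at 1499 to 3332 FPKM. *Runx2*, whose protein regulates several of these genes, was between 5.78 and 15.1 in deposited FPKM and between 0.587 and 1.2 from coverage. Its part in the levels of these genes was not tested.

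The other genes of the Dlx and Msx loci were low. None of the 7 listed, which are *Dlx1*, *Dlx2*, *Dlx4*, *Msx3* and the antisense genes *Dlx6os1*, *Dlx1as* and *Dlx4os*, reached a mean of 1 FPKM, *Msx3* was listed at 0 in 6 of 6 libraries, and *Dlx2* was at 0.724, 0.362 and 0.538 FPKM in the Hbb-bt-poor libraries and listed at 0 in the other 3, as *Msx2* nearly was. Among 9 bHLH, Id and Hes/Hey genes tested, 4 were lower in the Hbb-bt-rich libraries (*Tcf12*, *Id3*, *Id4* and *Hes1*) and 1 was higher. The latter, *Tcf3*, a dimer partner of TWIST1, was at 46 to 54.3 FPKM against 7 to 14.6. After scaling 6 of these 9 genes were lower, *Tcf4* and *Id1* being added, and 2 were higher, *Hey1* being added. *Twist2* stayed at 0.208 to 0.774 FPKM. Of 6 AP-1 subunits tested, *Fos*, *Fosl1* and *Jun* were lower and *Jund* higher, and after scaling *Junb* was lower as well.

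*Atf3* and *Atf5*, relatives of ATF4, were both lower in the Hbb-bt-rich libraries. Among 10 tested amino acid and stress genes that ATF4 is known to bind, 3 were higher (*Asns*, *Phgdh* and *Mthfd2*), 1 was lower (*Aldh1l2*) and 6 overlapped, and *Asns*, asparagine synthetase, was at 39.5 to 47.4 against 12.6 to 22.6 FPKM. After scaling 1 was higher (*Asns*) and 4 lower. Of 6 other Sp and Klf genes tested, *Klf2* and *Klf5* were higher and *Klf4* lower, and 5 proteins that restrain RUNX2 all overlapped in FPKM, whereas after scaling 1 was higher (*Zfp521*), 2 were lower (*Smurf1* and *Trps1*) and 2 overlapped. Among 10 regulators of other lineages, 7 were higher (*Sox9*, *Sox5*, *Gata1*, *Klf1*, *Gfi1*, *Cebpe* and *Pax5*) and 2 lower (*Scx* and *Mkx*). *Klf1* and *Gata1*, factors of red cell formation, reached 98.8 to 130 and 55.5 to 61.9 FPKM, above *Sp7* and *Runx2* in the same libraries.

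**Figure D4:**
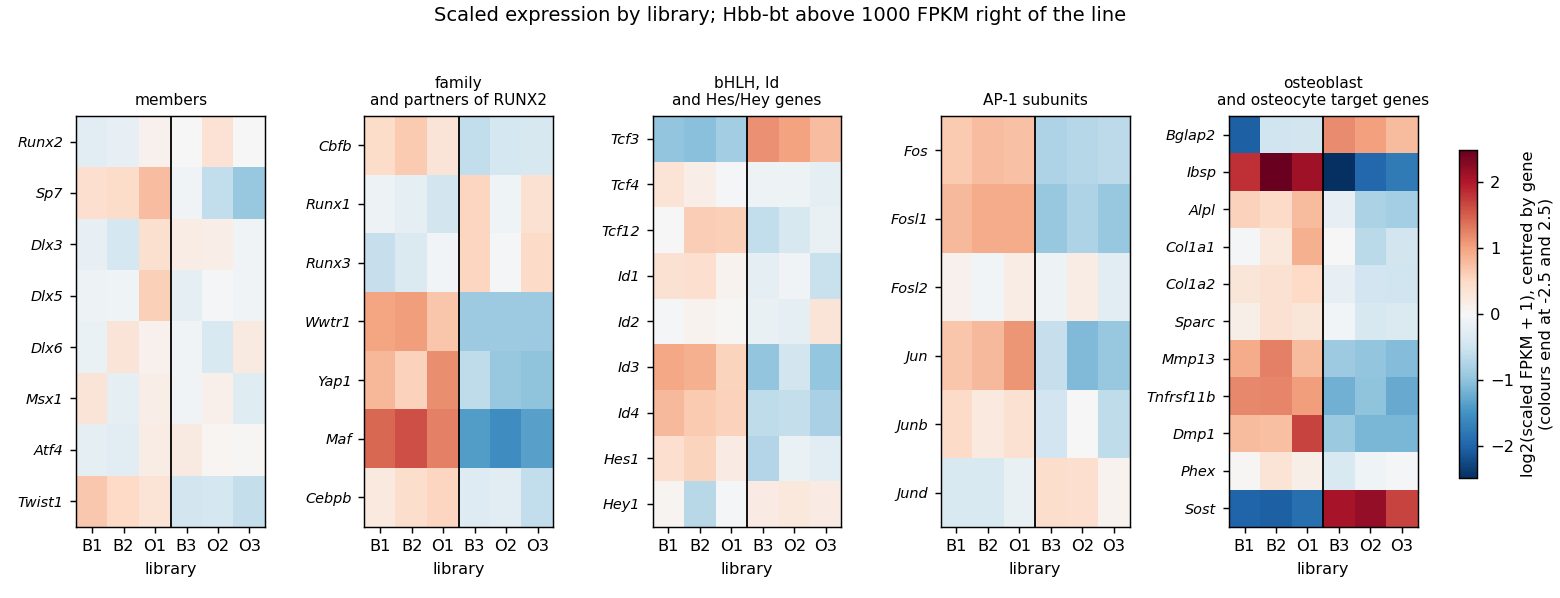
Scaled expression as log2(scaled FPKM + 1), centred on the mean of each gene (colour, which ends at -2.5 and 2.5), for the 8 members tested and tested genes of 4 related lists (rows) in the 6 libraries (columns; B bone, O osteoblasts), with the Hbb-bt-rich libraries to the right of the black line. *Sp7* and *Twist1* are lower on the right without overlap, *Ibsp* and *Maf* are lower there too, and *Sost* and *Bglap2* are higher.

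The members' patterns over the 6 libraries were compared by the root mean square difference of their centred log2(FPKM + 1), where smaller is more alike. The closest members were *Dlx3* and *Atf4* (0.13), *Runx2* and *Atf4* (0.16) and *Runx2* and *Dlx3* (0.18). *Sp7* and *Twist1* were each other's closest member (0.29), and *Runx2* and *Sp7* were the farthest apart of all pairs (0.72). Deposited FPKM of *Runx2* were 9.07 to 9.84 times those from coverage in the Hbb-bt-poor libraries and 11.9 to 15.1 times in the Hbb-bt-rich ones. Likenesses of *Runx2* therefore depend on the quantity read, and they were not computed from coverage. Over all genes tested, the nearest to *Sp7* were *Matn4* (0.10), *Nol3* (0.11) and *Alpl* (0.11), and *Alpl* was the nearest after scaling as well. *Alpl* was at 205, 95.4 and 94.1 FPKM in bone and at 153, 67.3 and 66 FPKM in osteoblasts. *Twist1* was nearest to *Ctnnbip1* (0.04), *Oat* (0.04) and *Adgra3* (0.05), and *Runx2* had *Slc38a1* (0.05) and *Pcyt1a* (0.06) among its 3 nearest. *Nfil3* (0.04) and *Suclg1* (0.05) were among the 3 nearest to *Atf4*. The nearest were for *Dlx3* *2410006H16Rik*, *Cops6* and *Zfp768* (0.04 to 0.08), and for *Dlx5* *D1Ertd622e*, *Gm11224* and *Zadh2* (0.03 to 0.08). *Msx1* was nearest to *Lrig3*, *Gnl1* and *Rnf215* (0.02 to 0.06) and *Dlx6* to *Xrcc4*, *Itpa-ps1* and *Dtna* (0.07 to 0.08). With 6 libraries and 12112 genes, near matches are numerous, and these likenesses carry no test.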

How the data were processed

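Total RNA of 6 libraries was sequenced by the authors as 75 bp read pairs from TruSeq RNA v2 libraries, which keep no strand. Reads were aligned to GRCm38 with HISAT2 2.0.5, and the submitters' processing notes also name SAMtools 1.7 and StringTie 1.3.3. The authors deposited FPKM scaled to all aligned reads, TPM, which rescale FPKM to a fixed sum, and coverage, the mean read depth over a feature. No read counts were used here.

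Groups were taken from the labels. Rows of 1 gene name were summed. The depth of a library was taken as the modal coverage per unit of FPKM. Named genes with a mean of at least 1 FPKM were compared on log2(FPKM + 1) with limma 3.58.1 (trend) in R 4.3.3, adjusted by Benjamini-Hochberg over all genes tested. Ratios (pseudocount 0.01) were compared by exact permutation, with scipy 1.17.1. On simulated data for 12112 genes with a spread of 0.3, limma recovered 200 of 200 genes changed by 2 on the log2 scale, with 10 other calls. This checks the code only. The median SD within a label was 0.59 in the data, and no split across the labels was simulated. The power to find the smaller differences seen here was not tested. Same-numbered libraries had correlations of 0.841, -0.747 and 0.83 of their deviations from the label means. The signs go with the *Hbb-bt* level of the libraries, so they cannot show which libraries share a mouse.

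Members and lists were chosen with earlier results of these data known. Genes named are the members, genes of the lists, marker genes, genes overlapping a member, and the 3 nearest in pattern. The 10 list genes without a named feature were not analysed here, and a few other genes that the rule names are not reported here. Alternatives were the pseudocount, no filter, TPM, scaling to named genes, quantile normalization, no trend, the replicate number as a block and leaving out libraries. Median-ratio scaling, coverage in place of FPKM and leaving out 2 libraries together were added after seeing the data. Promoter windows are from RefSeq on GRCm38.p6, and transcript lengths for the detection limit are from GENCODE vM1. Intervals for single FPKM values need counts and are not given.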

Additional observations from a re-analysis of the deposited data

How the results depend on the processing

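The count of genes called between the labels, 0, stayed 0 under another pseudocount, no filter, TPM, the scalings, coverage, limma without a trend and both libraries with large unnamed shares left out together. It was 49 (46 higher, 3 lower) with the replicate number as a block. Leaving out a library gave 0 to 300 calls, with 77 without bone replicate 3 and 300 without osteoblasts replicate 1, and 0 without any other. The methods have bone and cultures from the same mice, but the labels tie no number to a mouse, so the numbers were not taken as pairs. The opposed deviations of the number 2 libraries cannot decide this, because bone replicate 2 was Hbb-bt-poor and osteoblasts replicate 2 Hbb-bt-rich. No member was called under any alternative, the lowest adjusted p in limma being 0.693 for *Twist1*, and the replicate block changed no call of a member.

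Signs near 0 turned. *Dlx6* went from 0.02 to -0.0188 with TPM, -0.0846 scaled to named genes, -0.12 with quantile normalization and -0.0378 with median-ratio scaling, and leaving out a library gave -0.15 to 0.18. *Msx1* went from -0.01 to 0.0572 with a pseudocount of 0.1, and from -0.25 to 0.28 on leaving out a library. *Atf4* ranged from -0.0824 (without bone replicate 2) to 0.48, and *Twist1* from -0.73 to 6.79e-05 (without bone replicate 1). Without changing sign, leaving out a library moved *Runx2* (0.39) to between 0.12 and 0.54, *Sp7* (-0.44) to between -0.82 and -0.14, *Dlx3* (0.35) to between 0.0220 and 0.55 and *Dlx5* (0.37) to between 0.20 and 0.55. The lowest values of *Runx2*, *Dlx3* and *Dlx5* were without bone replicate 2, and *Runx2* was at 0.0692 from coverage. With both libraries of large unnamed share left out, *Sp7* was at -0.99, *Dlx5* at 0.0944 and *Dlx3* at 0.0122. The causes were not tested. The median over all genes was 0.12 in FPKM and -0.03 when scaled to named genes, so differences near 0.1 follow the scaling. The ratios kept their direction and side of the threshold in all 36 alternative values, where 3 against 3 libraries cannot pass it. *Msx2* was fitted only without the filter (-0.14). Depth limits what can be said of *Msx2* below 0.0541 to 0.0731 FPKM in the Hbb-bt-rich libraries, and of the genes near 0.2 FPKM or below.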
